A study of Mus musculus with 4 samples.

Results

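The BCL2 family decides whether a cell keeps its mitochondria intact or commits to apoptosis, and 10 of its genes were read here in hematopoietic stem cells (HSCs) with and without *Id2*. The genes were taken by symbol from the 19354 rows of the expression table, and each of the 10 had a single row. They are the anti-apoptotic genes *Bcl2*, *Mcl1* and *Bcl2l1*, the pore-forming effectors *Bax* and *Bak1*, and the BH3-only genes *Bcl2l11*, *Bbc3*, *Pmaip1*, *Bid* and *Bad*. The anti-apoptotic proteins hold the effectors and the BH3-only proteins in check. BH3-only proteins sense lost growth factors, DNA damage or death receptor signals, and either neutralize the anti-apoptotic proteins or activate BAX and BAK, which then open the outer mitochondrial membrane and release cytochrome c. MCL1 is known to be needed for HSC survival, and BCL-XL, the long product of *Bcl2l1*, for survival in the erythroid and megakaryocyte lineages.

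HSCs (LSK FLT3- CD48- CD150+ by flow cytometry) came from mice 8 to 16 weeks old, 2 weeks after pIpC. Controls were *Mx1-Cre Id2*+/+ mice and the others were *Mx1-Cre Id2* fl/fl mice, called *Id2*Δ/Δ once the floxed gene is removed. Both groups therefore carried the transgene and received pIpC, an inducer of interferon. The *Mx1* promoter that drives Cre answers to interferon in many cell types, so removal was not limited to HSCs. HSCs of 14 control and 15 floxed mice were pooled over 2 experiments. From each genotype 2 RNA-seq libraries were made, replicates 1 and 2, and the labels do not say which experiment gave which library. The p-values below therefore measure the spread between these pooled libraries.

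The deposited values were log2 CPM (counts scaled to a common library total), and the libraries held from 14200000 to 18800000 reads. At these depths a count of 0 is compatible with up to 3 reads, or 0.159 to 0.211 CPM by library, which covers counting error only. Reads of a gene were recovered from the ranks of its values up to 32 CPM, exactly so below 16 CPM on simulated counts and within a few reads above that. The deleted gene itself, *Id2*, gave 93 and 98 reads in control libraries against 0 reads in both *Id2*Δ/Δ libraries, as their labels have it. All 10 markers of HSCs had reads in every library. Their summed level was 4590 and 4490 CPM in *Id2*+/+ replicates 1 and 2 and 3150 and 3720 CPM in *Id2*Δ/Δ replicates 1 and 2. Of these 10 markers, 5 lay lower in both *Id2*Δ/Δ libraries, 1 lay higher and 4 overlapped. Over all genes tested, 15.8% lay lower and 19.0% lay higher in both. *Kit* gave the largest part of the sum. *Flt3* and *Cd48*, which the gate excludes, summed to 48.3 to 57.7 CPM. The 9 neutrophil markers summed to 142 to 276 CPM, lower in both libraries numbered 2, and the 6 megakaryocyte markers to 340 and 352 CPM in *Id2*+/+ against 414 and 424 CPM in *Id2*Δ/Δ libraries. Lists for erythroid, B, T and NK cells, macrophages and dendritic cells each summed to less than the megakaryocyte list, at 34.0 to 69.9 CPM. The hemoglobin genes *Hba-a1* and *Hba-a2* were at 0 reads in *Id2*Δ/Δ replicate 1, and *Cd79a*, *Ebf1*, *Pax5*, *Cd3e*, *Cd3g* and *Cd8a* had no row.

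None of the 10 BCL2 family genes passed the test between the genotypes. The difference was tested with limma over 15895 genes averaging 1 CPM or more, and all 10 genes met that filter, although *Pmaip1* did so only through 1 *Id2*Δ/Δ library. At an adjusted p-value under 0.05 (Benjamini-Hochberg over all genes tested), 0 of the 10 genes were called, and 0 of all genes (0.0%) were. At an unadjusted p under 0.05 it was again 0 of the 10, against 742 of all genes (4.67%). With 2 libraries a genotype, the smallest two-sided p of an exact permutation test is 0.333. The deleted gene *Id2*, with a log2 fold change of -7.31, was itself not called (adjusted p = 0.910, limma). A missing call is therefore no evidence that a gene is unchanged.

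For 7 of the 10 genes the log2 fold change was above 0, against 51.7% of all genes, and the median was 0.05, against 0.01 over all genes. *Pmaip1* is among these 7, although it met the filter only through *Id2*Δ/Δ and its value carries no weight. The libraries of the 2 genotypes did not overlap for 3 of the 10 genes, *Bcl2l1*, *Bak1* and *Bcl2l11*, against 34.8% of all genes. In each of these 3 both *Id2*Δ/Δ libraries were the higher, as in 19.0% of all genes. No gene of the 10 had both *Id2*Δ/Δ libraries below both *Id2*+/+ libraries, where 15.8% of all genes did. These counts are a description, and no test was made of whether the 10 genes differ from all genes. In bulk libraries such as these, fewer cells expressing a gene and less RNA per cell cannot be told apart.

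**Figure D1:**
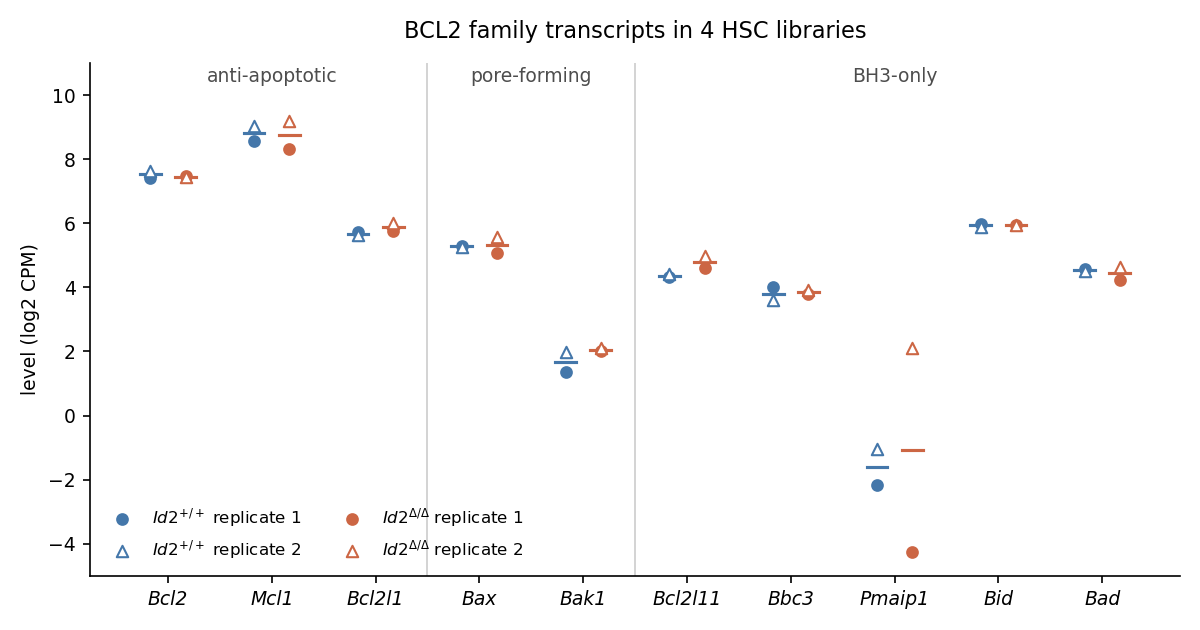
Level of the 10 BCL2 family genes in each library (y axis, log2 CPM), grouped by role, with circles for replicate 1, open triangles for replicate 2 and short lines for the mean of 2 libraries. *Id2*+/+ is blue and *Id2*Δ/Δ is orange, and outside *Pmaip1* the libraries of a gene lie within 0.87 of each other.

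The order of the transcripts, set per kilobase of the longest annotated transcript, put survival and death genes side by side. *Mcl1* had the highest level per kilobase of the 10, with a mean of 129.5 CPM per kilobase on the log scale. *Bax*, the main pore former, followed at 36.1, and *Bid*, *Bcl2* and *Bcl2l1* came next at 25.6, 25.0 and 21.5 CPM per kilobase. *Bad*, *Bbc3* and *Bcl2l11* had 14.7, 7.87 and 4.77 CPM per kilobase. *Bak1*, which can form the pore in the absence of BAX, had 1.52 CPM per kilobase, and *Pmaip1* was the lowest with 0.145.

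The ranges over the 4 libraries overlapped between *Bid* and *Bcl2*, between *Bcl2* and *Bcl2l1*, and between *Bak1* and *Pmaip1*. The other 6 pairs of neighbours did not overlap. *Bid*, *Bcl2* and *Bcl2l1* therefore did not differ beyond their spread. *Bak1* stood above *Pmaip1* in every library, and their ranges met only through *Id2*Δ/Δ replicate 2, at 0.84 and 0.66 log2 CPM per kilobase. In each of the 4 libraries *Mcl1* was first, *Bax* second and *Bcl2l11* in place 8, and only *Bid*, *Bcl2* and *Bcl2l1* exchanged places. Read lengths and isoform use were not taken into account by this scale, and a gene with a short main isoform is understated.

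**Figure D2:**
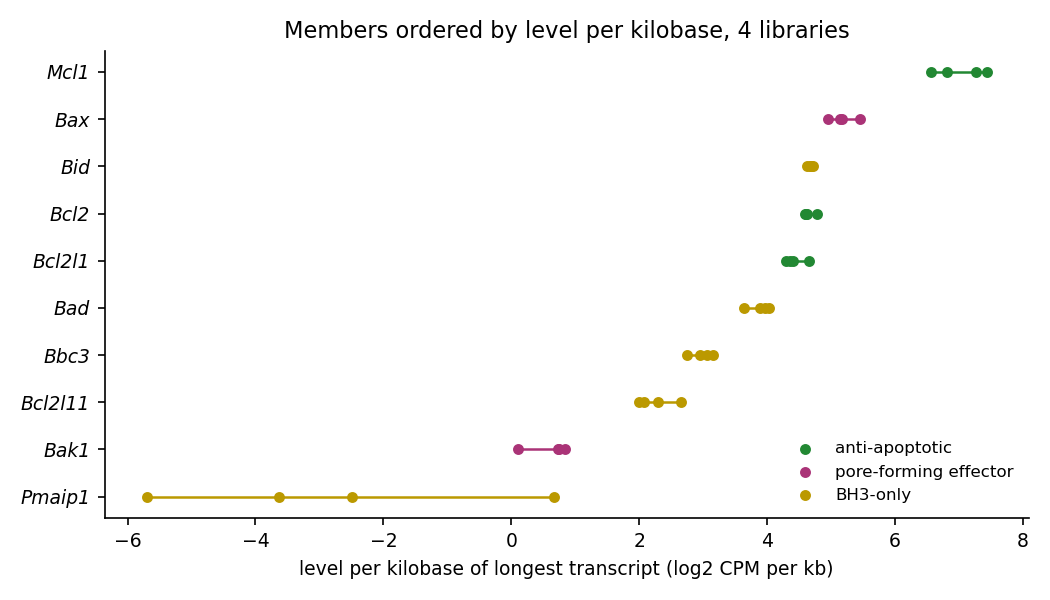
Level per kilobase of the longest annotated transcript (x axis, log2 CPM per kb) for the 10 genes in order of their mean, with 1 dot per library and a line from the lowest to the highest. *Mcl1* lies between 6.56 and 7.43 and *Bak1* between 0.11 and 0.84, while *Pmaip1* runs from -5.70 to 0.66.

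ID2 holds E proteins away from the E-box, and HIF-1 binds the core of the hypoxia response element, so both were searched upstream of the genes. Promoter windows came from RefSeq on GRCm38.p6, and only the 250 bases before a transcript start were read. The motifs, searched on both strands, were CANNTG for the E-box and ACGTG and GCGTG for the hypoxia core, where N is any base and an E-box of the form CACGTG also holds ACGTG. Of 32851 windows in the table, 66.2% held CANNTG, 16.6% held ACGTG and 28.2% held GCGTG. Windows were read for 9 of the 10 genes, and *Pmaip1* was left out of the search. Taking for each the start farthest upstream, 4 of 9 held an E-box and 5 of 9 held ACGTG or GCGTG. The share of all windows that held either hypoxia core was not computed. The 32851 windows were also not limited to the start farthest upstream. The counts of 4 and 5 of 9 therefore cannot be compared with the shares of all windows. The windows shown, with E-boxes in capitals, are those of *Bcl2l11* and *Bcl2l1*, whose libraries did not overlap, and *Mcl1*, whose libraries overlapped and whose level was the highest. They lie at chr2:128125788-128126037 on the plus strand, chr2:152831729-152831978 on the minus strand and chr3:95658471-95658720 on the plus strand.
Bcl2l11: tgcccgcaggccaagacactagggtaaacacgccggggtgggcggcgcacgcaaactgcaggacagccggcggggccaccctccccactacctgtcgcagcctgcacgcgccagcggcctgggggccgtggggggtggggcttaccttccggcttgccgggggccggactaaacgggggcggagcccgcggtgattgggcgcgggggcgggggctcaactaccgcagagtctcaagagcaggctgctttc
Bcl2l1: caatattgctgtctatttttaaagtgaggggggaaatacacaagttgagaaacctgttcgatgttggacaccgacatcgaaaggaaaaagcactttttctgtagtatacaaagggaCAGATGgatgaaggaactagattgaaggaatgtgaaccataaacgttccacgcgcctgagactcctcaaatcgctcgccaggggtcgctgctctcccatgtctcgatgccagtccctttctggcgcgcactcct
Mcl1: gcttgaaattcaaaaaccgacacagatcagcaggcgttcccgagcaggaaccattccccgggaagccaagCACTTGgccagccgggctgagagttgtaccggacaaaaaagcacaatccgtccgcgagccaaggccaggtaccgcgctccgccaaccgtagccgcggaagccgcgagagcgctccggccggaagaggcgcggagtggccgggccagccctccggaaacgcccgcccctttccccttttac

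The *Bcl2l11* window had 72.0% G and C, no CANNTG and 3 matches to GCGTG. The *Bcl2l1* window had 47.6% G and C, an E-box with the letters CAGATG and 1 match to GCGTG, and the *Mcl1* window had 64.4% G and C and an E-box with the letters CACTTG. These matches describe the letters of the windows and are no evidence of binding.

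Among the anti-apoptotic genes, *Bcl2* (ENSMUSG00000057329.7, chromosome 1 of GRCm38 from 106538178 to 106714274), which gave the family its name, was at 7.43 and 7.63 log2 CPM in *Id2*+/+ replicates 1 and 2 and at 7.46 and 7.45 in *Id2*Δ/Δ replicates 1 and 2. The *Id2*Δ/Δ values fell between the control values. Its log2 fold change was -0.07 with a 95% interval from -0.35 to 0.21 and an adjusted p of 0.942 in limma (Benjamini-Hochberg). On the linear scale that interval runs from 0.782-fold to 1.16-fold.

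*Mcl1* (ENSMUSG00000038612.16, chromosome 3 from 95658788 to 95663176) encodes a short-lived survival protein. It was at 8.58 and 9.04 log2 CPM in *Id2*+/+ and at 8.33 and 9.20 in *Id2*Δ/Δ HSCs, so in both genotypes the replicates stood further apart than the genotypes did. Replicate 2 exceeded replicate 1 by 0.45 in *Id2*+/+ and by 0.87 in *Id2*Δ/Δ HSCs. Among the 7332 genes averaging 5 log2 CPM or more, the percentile 95 of this difference, without sign, was 0.39 and 0.61. The log2 fold change of *Mcl1* was -0.04 (95% interval -0.68 to 0.60, adjusted p = 0.986, limma). Leaving out *Id2*Δ/Δ replicate 2 moved it to -0.48, and leaving out *Id2*Δ/Δ replicate 1 to 0.39, but this also unbalances the replicate numbers. Within replicate numbers 1 and 2 the genotype difference of *Mcl1* was -0.25 and 0.17, so its direction was not settled. With a replicate block in the fit the log2 fold change was again -0.04, with a standard error of 0.13 against 0.27 without it. Neutrophil markers moved the other way between the replicates, from 276 to 170 CPM in *Id2*+/+ and from 259 to 142 CPM in *Id2*Δ/Δ libraries, and their part in the *Mcl1* values was not tested.

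*Bcl2l1* (ENSMUSG00000007659.18, chromosome 2 from 152780668 to 152831728) was at 5.72 and 5.65 log2 CPM in *Id2*+/+ and at 5.76 and 6.01 in *Id2*Δ/Δ HSCs. Both *Id2*Δ/Δ libraries were the higher, the nearest pair by 0.05 within replicate number 1. This gave a log2 fold change of 0.20 (95% interval -0.17 to 0.57, adjusted p = 0.910, limma) which stayed between 0.08 and 0.32 when single libraries were left out. Isoforms of *Bcl2l1*, which include a short form that promotes death, are summed in 1 value. Megakaryocyte markers, as given above, also summed to more in both *Id2*Δ/Δ libraries, and their part in the *Bcl2l1* values was not tested.

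The effector *Bax* (ENSMUSG00000003873.11, chromosome 7 from 45461697 to 45466898) was at 5.31 and 5.27 log2 CPM in *Id2*+/+ and at 5.09 and 5.59 in *Id2*Δ/Δ HSCs. The control libraries agreed within 0.03 and the *Id2*Δ/Δ libraries lay on either side of them, 0.50 apart. The log2 fold change was 0.05 (95% interval -0.43 to 0.53, adjusted p = 0.974, limma), and it was -0.20 without *Id2*Δ/Δ replicate 2 and 0.30 without *Id2*Δ/Δ replicate 1.

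*Bak1* (ENSMUSG00000057789.13, chromosome 17 from 27019810 to 27029009) had 38 and 63 reads in *Id2*+/+ and 71 and 74 reads in *Id2*Δ/Δ libraries, or 1.36 and 1.98 against 2.00 and 2.10 log2 CPM. The upper control and both *Id2*Δ/Δ libraries stood at 4.01, 3.99 and 3.94 RPM when the recovered reads were scaled to depth, so the groups overlapped on that scale although their normalized values did not. Its log2 fold change was 0.38, with a wide 95% interval from -0.63 to 1.39 (adjusted p = 0.924, limma). Without *Id2*+/+ replicate 1 it was 0.07.

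The BH3-only gene *Bcl2l11* (ENSMUSG00000027381.16, chromosome 2 from 128126038 to 128162547) encodes BIM, which binds all the anti-apoptotic proteins and can activate BAX, and had the smallest p of the 10 genes. It had 283 and 330 reads in *Id2*+/+ replicates 1 and 2 and 432 and 600 reads in *Id2*Δ/Δ replicates 1 and 2. In log2 CPM these were 4.33 and 4.41 against 4.62 and 4.99. All 4 values were ordered by genotype, and, unlike the other 9 genes, *Bcl2l11* had a genotype difference larger than the difference between replicates in either genotype. The log2 fold change was 0.43 (1.35-fold) with a standard error (SE) of 0.21 and a 95% interval from -0.06 to 0.93. The unadjusted p was 0.0765, the adjusted p 0.910 (limma, Benjamini-Hochberg), and it stood at place 1210 of the 15895 genes by p.

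Leaving out each library in turn moved the log2 fold change of *Bcl2l11* between 0.25, without *Id2*Δ/Δ replicate 2, and 0.62, without *Id2*Δ/Δ replicate 1. With each library corrected for transcript length, *Bcl2l11* had a log2 fold change of 0.50 (unadjusted p = 0.0423, adjusted p = 0.951, limma). In that fit 672 of 15855 genes had an unadjusted p under 0.05. The HSC markers summed to less in both *Id2*Δ/Δ libraries, as given above, and their part in the *Bcl2l11* difference was not tested.

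Within a library, *Bcl2l11* was also read against each anti-apoptotic gene, as a difference of log2 CPM values. A factor common to the whole library cancels in that difference, while a shift from normalization that varies with level does not. Against *Bcl2* the difference was -3.10 and -3.21 in *Id2*+/+ and -2.85 and -2.46 in *Id2*Δ/Δ HSCs. Against *Bcl2l1* it was -1.39 and -1.24, and then -1.14 and -1.02. Against *Mcl1* it was -4.26 and -4.62, and then -3.71 and -4.21. In all 3 the *Id2*Δ/Δ libraries were the higher, by means of 0.51, 0.23 and 0.48. *Bcl2l11* is in each of them and was by itself higher in both *Id2*Δ/Δ libraries. They are therefore not separate observations and add no support to its difference. How often other pairs of genes separate in this way was not computed. *Bax* against *Bcl2* and against *Mcl1* overlapped between the genotypes.

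The 3 tested genes whose values over the 4 libraries were most like those of *Bcl2l11*, by the root mean square difference of log2 values centred on each gene's mean, were *Mest*, *Sgsm3* and *Prc1*. Their differences from it were 0.0062, 0.017 and 0.030. Over 4 libraries such likeness describes little more than the order of the values. The log2 fold changes of *Mest*, *Sgsm3* and *Prc1* were 0.43, 0.42 and 0.42. These lie near that of *Bcl2l11* because the genes were picked for that likeness, so they are not separate observations.

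**Figure D3:**
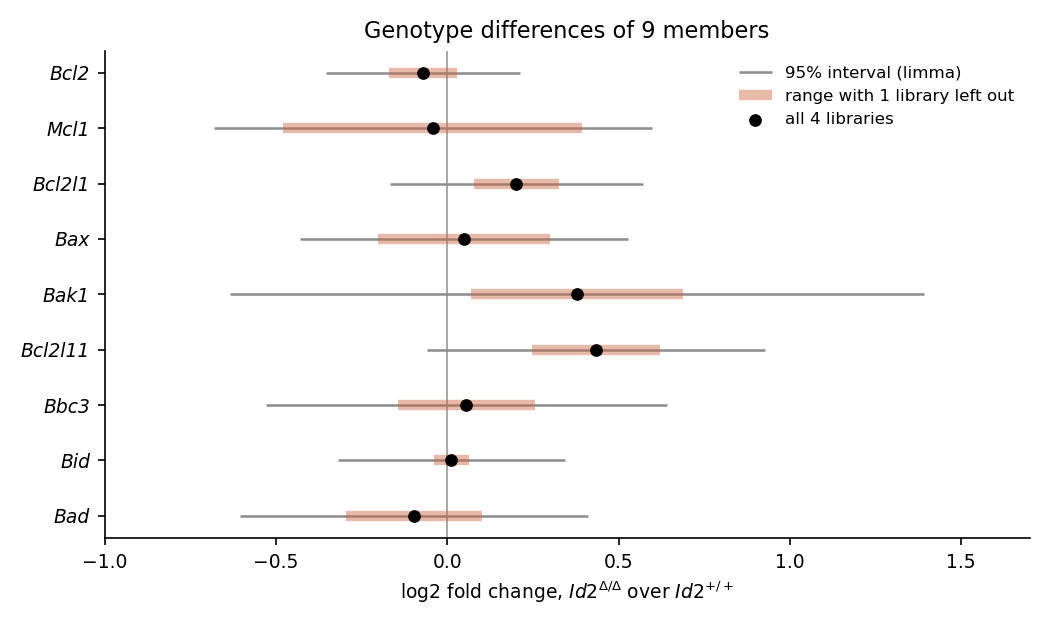
Log2 fold change of *Id2*Δ/Δ over *Id2*+/+ HSCs (x axis) for the 9 genes other than *Pmaip1*, whose interval from -4.25 to 5.34 would not fit the axis. Black dots are the values from 4 libraries, grey lines the 95% intervals of limma and orange bars the range with 1 library left out at a time; all 9 intervals cross 0, and the bars of *Bcl2l1*, *Bak1* and *Bcl2l11* stay above it.

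*Bbc3* (ENSMUSG00000002083.13, chromosome 7 from 16308393 to 16318205) encodes PUMA, a target of p53. It had 229 and 192 reads in *Id2*+/+ and 250 and 282 reads in *Id2*Δ/Δ libraries, or 4.01 and 3.61 against 3.81 and 3.92 log2 CPM. Both *Id2*Δ/Δ values fell between the control values. Between the means the log2 fold change was 0.06 (95% interval -0.53 to 0.64, adjusted p = 0.978, limma).

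*Pmaip1* (ENSMUSG00000024521.7, chromosome 18 from 66458533 to 66465565) encodes NOXA, a partner of MCL1 and also a p53 target, and was sparse in 3 of 4 libraries. It had 4 and 8 reads in *Id2*+/+ libraries, then 0 and 75 reads in *Id2*Δ/Δ replicates 1 and 2. That last library, at 3.99 RPM, stood alone, since the others had 0 to 0.510. The *Id2*Δ/Δ replicates thus lay on both sides of the controls, and a library with 0 reads allows up to 0.169 CPM. The log2 fold change of 0.54 had a standard error of 2.05 and an adjusted p of 0.971 in limma. It depends on the value given to 0 reads, being 0.92 with 0.1 CPM added before taking the log and 0.81 with 1 CPM added. As deposited, it was -2.64 without *Id2*Δ/Δ replicate 2 and 3.72 without *Id2*Δ/Δ replicate 1.

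*Bid* (ENSMUSG00000004446.12, chromosome 6 from 120891930 to 120916853), the protein of which links death receptors to mitochondria once cut by caspase-8, was the steadiest of the 10. It was at 5.99 and 5.89 log2 CPM in *Id2*+/+ and at 5.94 and 5.96 in *Id2*Δ/Δ HSCs, with a log2 fold change of 0.01 (95% interval -0.32 to 0.34, adjusted p = 0.993, limma). *Bad* (ENSMUSG00000024959.13, chromosome 19 from 6941861 to 6951899), which survival kinases silence by phosphorylation, had 339 and 353 reads against 338 and 475 reads. Its values of 4.58 and 4.50 in *Id2*+/+ lay between those of 4.25 and 4.64 in *Id2*Δ/Δ HSCs, and the log2 fold change was -0.10 (95% interval -0.61 to 0.41, adjusted p = 0.952, limma). Against *Bcl2l1*, the protein of which BAD binds, *Bad* was at -1.13 and -1.15 in *Id2*+/+ and at -1.52 and -1.37 in *Id2*Δ/Δ libraries. The mean difference was -0.30 without overlap, but *Bcl2l1* by itself was higher in both *Id2*Δ/Δ libraries, so this is not a separate observation.

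The exons of some of these genes overlap others, and the sources used here do not say whether strand was used in counting. *Bid* shares 628 of 3550 exon bases with *Bcl2l13* on the opposite strand, *Bad* 524 of 2558 with *Gpr137* and *Bcl2* 558 of 9157 with the antisense gene *D630008O14Rik*. *Bak1* overlaps *Ggnbp1* on the opposite strand and *Bax* shares 192 of 1576 bases with *Gm45808* on the same strand. Values of *Bid*, *Bad*, *Bcl2*, *Bak1* and *Bax* carry that uncertainty.

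For 9 of the 10 genes the larger of the 2 replicate differences exceeded the genotype difference, as it did for 77.9% of all genes. In *Id2*Δ/Δ HSCs 9 of the 10 genes were higher in replicate 2 than in replicate 1, by a median of 0.31, where 48.8% of all tested genes were higher. In *Id2*+/+ HSCs 5 of the 10 were, by a median of 0.03, and 48.6% of all tested genes. *Bcl2* was the exception in *Id2*Δ/Δ HSCs, at 7.46 and 7.45. Taking each gene against its mean over the 4 libraries, the median of the 10 genes was -0.07 and -0.02 in the control replicates 1 and 2, and -0.03 and 0.23 in the *Id2*Δ/Δ replicates 1 and 2. Across genotypes, the median log2 fold change of the 10 genes was 0.31 without *Id2*Δ/Δ replicate 1 and -0.03 without *Id2*Δ/Δ replicate 2, and 9 and 5 of the 10 genes were then above 0. Without *Id2*Δ/Δ replicate 1 the largest of these log2 fold changes were 3.72 for *Pmaip1* and 0.62 for *Bcl2l11*. *Pmaip1* entered the test only through the remaining *Id2*Δ/Δ library, so its value carries no weight.

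**Figure D4:**
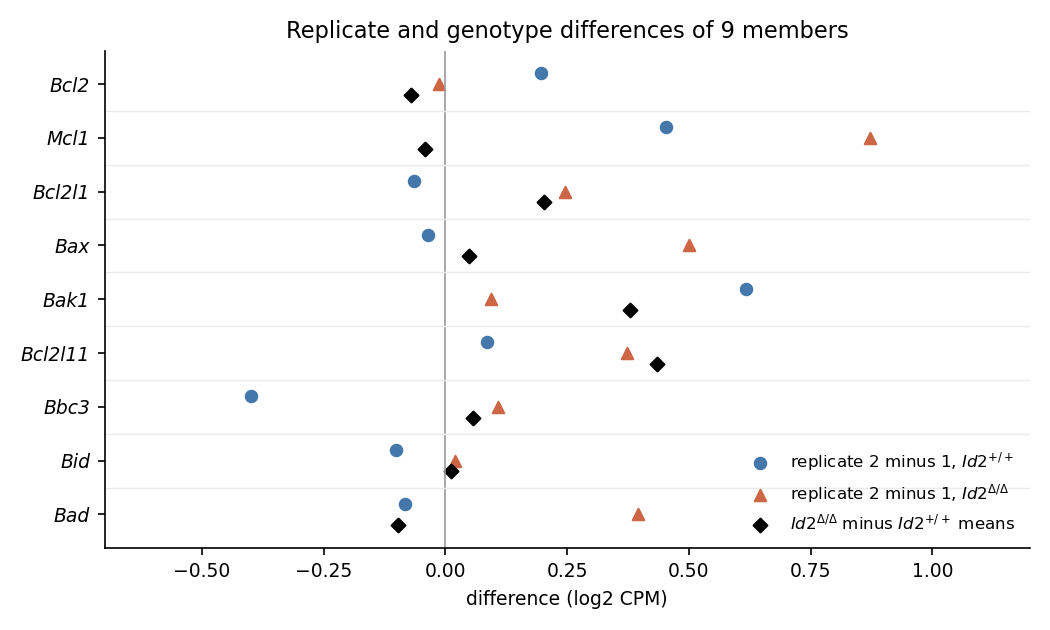
Differences in log2 CPM (x axis) for the 9 genes other than *Pmaip1*, with blue circles for replicate 2 minus replicate 1 in *Id2*+/+, orange triangles for the same in *Id2*Δ/Δ and black diamonds for the genotype difference. Of the triangles, 8 of 9 lie above 0, with *Mcl1* the farthest at 0.87, and only for *Bcl2l11* is the diamond farther from 0 than both other marks.

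Of 17 other BCL2 family genes listed, 10 had a row and 9 could be tested. *Bcl2l10*, *Hrk*, *Bcl2l15* and the *Bcl2a1* genes had no row and were not analysed here. In the 9, 0 were called and 7 had a log2 fold change above 0, against 51.7% of all genes. The median was 0.12, against 0.01 over all genes. *Bmf*, a BH3-only gene that answers to lost attachment, had 35 and 70 reads in *Id2*+/+ libraries, then 0 and 10 reads in *Id2*Δ/Δ replicates 1 and 2. The *Id2*Δ/Δ libraries were both the lower, at 0 and 0.532 against 2.46 and 4.46 RPM. The log2 fold change was -4.18 with a standard error of 1.27 (adjusted p = 0.910, limma). Its size depends on the value given to 0 reads, and with 1 CPM added before taking the log it was -1.72, and without *Id2*Δ/Δ replicate 1 it was -2.42.

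*Bmf* passed the filter through the *Id2*+/+ libraries alone, so its contrast is partly set by that filter and its test carries no weight. *Bik*, a BH3-only gene under the filter, had 5 and 1 reads in *Id2*+/+ and 8 and 9 reads in *Id2*Δ/Δ libraries. *Bcl2l2*, which encodes the survival protein BCL-W, had 123 and 93 reads against 156 and 145, a log2 fold change of 0.27 (SE 0.32) that was 0.0080 without *Id2*+/+ replicate 2. *Bok*, another pore former, had 70 and 99 reads against 105 and 130, a log2 fold change of 0.25 (SE 0.35) that was 0.06 without *Id2*+/+ replicate 1. For *Bcl2l2* and *Bok* the libraries overlapped. *Bcl2l14* had 53 and 54 reads in *Id2*+/+ and 129 and 58 reads in *Id2*Δ/Δ libraries, so its log2 fold change of 0.52 rested on *Id2*Δ/Δ replicate 1, without which it was -0.04. *Bcl2l12*, *Bcl2l13*, *Bnip3*, *Bnip3l* and *Becn1* had log2 fold changes of 0.12, 0.15, -0.10, 0.07 and 0.04, each smaller than its standard error of 0.23, 0.16, 0.17, 0.13 and 0.13.

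**Figure D5:**
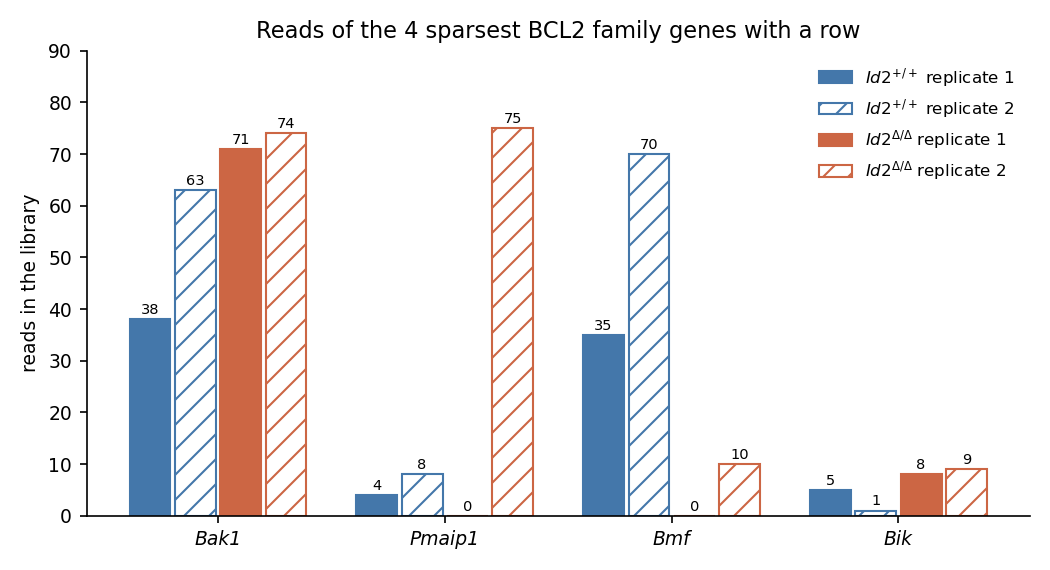
Reads (y axis) of the 4 BCL2 family genes with the fewest reads, with 1 bar per library, filled for replicate 1 and hatched for replicate 2, and the number above each bar. *Pmaip1* had 75 reads in a single library, and *Bmf* had 35 and 70 reads in controls and 0 and 10 without *Id2*. *Bak1* had 38 and 63 reads in controls and 71 and 74 without *Id2*, and *Bik* had 5 and 1 against 8 and 9.

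Downstream of the mitochondria, 15 genes of the membrane channels, released proteins, apoptosome, executioner caspases and nuclease were tested. None had an unadjusted p under 0.05. For 14 of 15 the log2 fold change was above 0, against 51.7% of all genes. The median was 0.07, against 0.01, with values from -0.01 to 0.35. In 2 of the 15 both *Id2*Δ/Δ libraries were above the controls, against 19.0% of all genes. Whether the list differs from all genes was not tested. *Vdac1*, a channel of the outer membrane and the gene with the highest level per kilobase in this list, was at 7.42 and 7.38 log2 CPM in *Id2*+/+ and at 7.75 and 7.55 without *Id2*. Its log2 fold change was 0.25 (SE 0.12, unadjusted p = 0.0813, adjusted p = 0.910, limma). Both *Id2*Δ/Δ libraries were the higher for *Vdac1*, whose log2 fold change was 0.14 without *Id2*Δ/Δ replicate 1.

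The 4 caspase inhibitors did not share a direction. *Birc6*, a very large member that ubiquitinates caspases, was at 8.15 and 7.98 log2 CPM in *Id2*+/+ and at 7.76 and 7.55 without *Id2*. Its log2 fold change was -0.41 (SE 0.13, unadjusted p = 0.0135, adjusted p = 0.910, limma). *Xiap*, which blocks caspases directly, was at 5.94 and 6.10 against 6.54 and 6.20, with a log2 fold change of 0.34 (SE 0.17, unadjusted p = 0.0749) that was 0.17 without *Id2*Δ/Δ replicate 1 and 0.51 without *Id2*Δ/Δ replicate 2. *Birc2*, the highest per kilobase, had -0.04. The longest transcript of *Birc6* has 15768 bases, and with each library corrected for transcript length its log2 fold change was -0.19.

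In a list of death receptors, adaptors and initiator caspases 9 genes were tested, 0 with an unadjusted p under 0.05. For 8 of 9 the log2 fold change was above 0, against 51.7% of all genes, with a median of 0.03, against 0.01. In 1 of the 9 both *Id2*Δ/Δ libraries were above the controls, against 19.0% of all genes. *Tnfrsf10b*, the receptor for TRAIL, had 43 and 77 reads in *Id2*+/+ and 113 and 105 reads in *Id2*Δ/Δ libraries. Both *Id2*Δ/Δ libraries were the higher, and the log2 fold change was 0.71 (SE 0.40, unadjusted p = 0.118, adjusted p = 0.910, limma). It was 0.35 without *Id2*+/+ replicate 1 and 1.07 without *Id2*+/+ replicate 2. The adaptor *Fadd* had 158 and 135 reads against 346 and 177, a log2 fold change of 0.52 (SE 0.37) that was 0.02 without *Id2*Δ/Δ replicate 1. *Casp2*, an initiator caspase and the highest per kilobase of these 9, had -0.19 (SE 0.13), with both *Id2*Δ/Δ libraries the lower. The *Casp2* value was -0.03 without *Id2*Δ/Δ replicate 1 and -0.34 without *Id2*Δ/Δ replicate 2.

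BCL2 family proteins are also set by turnover and phosphorylation, and 19 genes of that kind were tested. At an unadjusted p under 0.05, 0 were higher and 2 were lower in *Id2*Δ/Δ HSCs, where 1.72% of all genes were higher and 2.95% lower. *Usp9x*, whose product removes ubiquitin from MCL1, was at 7.63 and 7.62 log2 CPM in *Id2*+/+ and at 7.08 and 7.28 without *Id2*, a log2 fold change of -0.45 (SE 0.12, unadjusted p = 0.00763, adjusted p = 0.910, limma). *Btrc*, part of a ubiquitin ligase that can mark MCL1, was at 5.77 and 5.90 against 5.38 and 5.35, a log2 fold change of -0.47 (SE 0.15, unadjusted p = 0.0173, adjusted p = 0.910, limma). The pair act on MCL1 in opposite ways. With the correction for transcript length *Usp9x*, with 11887 bases, had -0.27 and *Btrc*, with 4720 bases, had -0.42. *Ywhae*, a 14-3-3 protein of the kind that holds phosphorylated BAD and the highest per kilobase of this list, had 0.17 (SE 0.11), and 0.08 without *Id2*Δ/Δ replicate 1. In all, 6 of the 19 had both *Id2*Δ/Δ libraries above the controls, against 19.0% of all genes, and 2 had both below, against 15.8%, and the median was -0.04.

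Of 10 transcription factors known to act on family genes, 8 were tested, and *Trp63* and *Trp73* had no row. *Stat5b*, a cytokine-driven factor of *Bcl2l1* and *Mcl1*, was at 7.74 and 7.66 log2 CPM in *Id2*+/+ and at 7.08 and 7.53 in *Id2*Δ/Δ HSCs. It was the 1 gene of the 8 with an unadjusted p under 0.05, as 4.67% of all genes had. Its log2 fold change was -0.39 (SE 0.16, unadjusted p = 0.0447, adjusted p = 0.910, limma). That value was -0.17 without *Id2*Δ/Δ replicate 1 and -0.61 without *Id2*Δ/Δ replicate 2. *Trp53*, the highest per kilobase, had 0.09 (SE 0.10) and *Atf4*, a factor of the stress response, 0.12 (SE 0.13). For *Trp53* and *Atf4* the controls were the lower pair, but the log2 fold changes were smaller than their standard errors. Over the 8 genes 5 log2 fold changes were above 0 and the median was 0.03, against 51.7% and 0.01 over all genes. In 3 of the 8 both *Id2*Δ/Δ libraries were above the controls, against 19.0% of all genes. In 1 of the 8 both were below, against 15.8%.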

How the data were processed

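HSCs sorted from *Id2*+/+ and *Id2*Δ/Δ mice gave 2 RNA-seq libraries each. The authors deposited log2 CPM values for 19354 genes, all 4 columns of which were used. The unit was read from the values, and 88.4% of ranks agree within 0.1 between libraries, the mark of quantile normalization. The submitters' processing notes list CASAVA 1.8.4, Trimmomatic 0.30, TopHat2 2.0.8, STAR and RSEM, and the builds mm9 and NCBIM37, without roles. The strand setting is not given in the sources used here. Coordinates and lengths are those of GENCODE M21 (GRCm38), matched by Ensembl identifier for 99.7% of genes, 82.0% with the same version.

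Values were tested as deposited, without a pseudocount, using limma 3.58.1 in R 4.3.3 (lmFit and trended eBayes on genotype alone; two-sided p-values adjusted by Benjamini-Hochberg over the 15895 genes averaging 1 CPM or more), after the fit was checked on simulated data. Reads and depth were recovered from the ranks of low values. No count model was run, since reads above 32 CPM were not recovered. The family genes and the other lists were chosen with earlier results of these data known. Named were the 10 genes, *Id2*, the other family genes with a row, for each further list the gene highest per kilobase and the 2 with the smallest p, and the 3 genes most like the family gene with the smallest p. Not every gene that this rule picks is reported here. The alternatives changed the pseudocount, scaling, filter, trend, transcript length, pairing and libraries.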

Additional observations from a re-analysis of the deposited data

How the results depend on the processing

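No alternative called any of the 10 family genes. Leaving out a library gave 0 calls over all genes each time, and between 5 and 9 of the 10 genes above 0. Of 472 log2 fold changes recomputed for 37 genes, 450 kept their direction, 22 reversed and 0 changed their call. The reversed values were small or rested on single libraries. The median log2 fold change of the 10 genes lay between -0.03 and 0.31 with a library left out. Fits with 1 library in a genotype assume that it varies like the others.

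Over all genes the correlation of deviations between same-numbered libraries was 0.0592, and the labels tie no number to an experiment, so the libraries were not treated as pairs. Single genes did differ the same way by number in both genotypes, *Mcl1* and the summed neutrophil markers among them. A replicate block in the fit gave 1 called gene over the whole table, *C130089K02Rik*, at a log2 fold change of -1.61, and with the length correction added the count was again 1, the same gene, at -1.50. The block changed no call of the 10 genes.

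Under the correction for transcript length, with and without the block, *Bcl2* was 0.038 and *Bax* -0.0094. Under median-ratio rescaling *Bid* was -0.001. With a library left out, the ranges of log2 fold changes that crossed 0 were -0.17 to 0.028 for *Bcl2*, -0.48 to 0.39 for *Mcl1*, -0.20 to 0.30 for *Bax*, -0.14 to 0.26 for *Bbc3*, -2.64 to 3.72 for *Pmaip1*, -0.039 to 0.063 for *Bid* and -0.29 to 0.10 for *Bad*. Among the other genes they were -0.16 to 0.40 for *Bcl2l12*, -0.017 to 0.32 for *Bcl2l13*, -0.038 to 1.07 for *Bcl2l14*, -0.040 to 0.18 for *Bnip3l*, -0.015 to 0.10 for *Becn1* and -0.16 to 0.078 for *Birc2*. Which step causes a reversal was not tested.

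Depth limits *Pmaip1*, *Bak1*, *Bmf* and *Bik*, with under 100 reads in each library.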
